A study of Mus musculus with 12 samples.

Results

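The 10 genes described here are Txnip, its relative Arrdc4, and the carbohydrate-responsive genes of fatty acid synthesis Mlxipl, Acly, Me1, Acaca, Acacb, Fasn, Thrsp and Mid1ip1. They were chosen by gene symbol, 10 of the 24888 gene entries of each library. The mean FPKM over all libraries, the only measured value in the rule, served to choose among several loci of a symbol, which 0 of the 10 needed. The gene list was proposed with earlier results of these data known, so the tests below describe these libraries and are not independent support for the choice of genes. RNA was sequenced from adipocytes differentiated in culture, in 12 libraries that form 6 groups of 2. Preadipocytes from the inguinal white fat of C57BL/6 mice, labelled ATF7KO or WT, were differentiated with rosiglitazone, an agonist of the nuclear receptor PPARγ (beige adipocytes: ATF7KO beige and WT beige), or without it (white adipocytes: ATF7KO white and WT white). The remaining 4 libraries came from C3H10t1/2, a mouse mesenchymal cell line that can form adipocytes. They were labelled ATF7-Overexpressing or Control, and both were differentiated with rosiglitazone into beige adipocytes. ATF7 is a transcription factor of the ATF2 family. The labels used here do not say which part of the gene the knockout removed, how many animals gave cells, how ATF7 was overexpressed or whether replicates were separate cultures, so the tests set differences against a spread that may be technical only.

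Cells that take up more glucose turn part of it into fat. A glucose metabolite activates ChREBP, the transcription factor encoded by Mlxipl, which binds DNA with its partner Mlx at carbohydrate response elements, each made of paired E-box-like motifs 5 bases apart. Among its known targets are the enzymes of fatty acid synthesis, and also Txnip and Arrdc4, alpha-arrestins that reduce glucose uptake and so form a feedback loop. The insulin-driven factor SREBP-1c, encoded by Srebf1, can act on many of the same enzymes. Acly splits citrate into acetyl-CoA, Acaca and Acacb carboxylate acetyl-CoA to malonyl-CoA, and Fasn builds palmitate from it with NADPH, part of which Me1 supplies. Thrsp (Spot 14) and its relative Mid1ip1 are small proteins that promote lipogenesis, and Mid1ip1 promotes polymerisation of the carboxylases.

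The deposited unit was FPKM, which divides fragments by transcript length and by library size, so levels can be compared between genes, but the read depth is unknown and no counting interval can be given. From 9844 to 10877 entries per library reached 1 FPKM. Replicates of a group had a Pearson's r of 0.984 to 0.992 across genes on the log2(FPKM + 1) scale, and genes are not independent replicates. Atf7, the targeted gene, stood at 7.26, 7.94, 6.88 and 7.73 FPKM in the 4 ATF7KO libraries and at 7.80, 7.83, 9.10 and 7.10 FPKM in the 4 WT libraries. These ranges overlapped, so every direction given for the libraries labelled ATF7KO rests on their labels. In C3H10t1/2, Atf7 stood at 41.2 and 39.1 FPKM in ATF7-Overexpressing libraries, against 8.52 and 9.09 FPKM in Control libraries. Adipocyte markers were present in every group, except that Lep was listed at 0 in both ATF7KO beige libraries. The 11 genes summed to between 3784 FPKM (ATF7KO white) and 13859 FPKM (ATF7-Overexpressing). Much of these 2 sums was Fabp4 alone, at 1940 and 9779 FPKM in the same libraries. Epithelial markers summed to at most 0.583 FPKM. Ucp1, the thermogenic uncoupling protein, was listed at 0 in both white groups.

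In the mm10 build Txnip lies on chromosome 3 (96557957 to 96561857, plus strand), Arrdc4 and Thrsp on chromosome 7 (68736994 to 68749238 and 97412957 to 97417510, both minus), and Acly, Acaca and Fasn on chromosome 11 (100476352 to 100528000, minus; 84195438 to 84401651, plus; 120805958 to 120824547, minus). Acacb and Mlxipl lie on chromosome 5 (114165518 to 114250758 and 135106891 to 135138382, both plus), Me1 on chromosome 9 (86581363 to 86695914, minus) and Mid1ip1 on the X chromosome (10717365 to 10719702, plus). Genes on the opposite strand share 606 exonic bases with Txnip (Gm15441), 543 with Mid1ip1 (Gm14493), 235 with Mlxipl (Gm43500) and 30 with Me1 (A330041J22Rik) in GENCODE M21. Gm15441 and A330041J22Rik were listed at 0 in all 12 libraries, and a listed 0 may be a failed estimate. Gm14493 and Gm43500 had no entry in the deposited values. The libraries were directional per the labels' protocols, but whether strand was used in counting is not given, so reads of such pairs cannot be told apart.

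The 250 bases before the start site are shown for Txnip, Arrdc4 and Thrsp, the 3 members with the largest difference between ATF7KO white and WT white adipocytes, from the RefSeq promoter table (GRCm38.p6, 5′ to 3′ on the gene's strand). All 10 genes matched that table, with 12 windows, since Mlxipl and Me1 each have 2 starts in it. Capitals mark matches, on either strand, to the carbohydrate response element searched as CACGNG followed after any 5 bases (NNNNN) by CACGNG again, to the E-box CACGTG or to the CCAAT box, which reads ATTGG on the other strand. The windows are chr3:96557707-96557956 on the plus strand for Txnip, chr7:68749239-68749488 on the minus strand for Arrdc4 and chr7:97417551-97417800 on the minus strand for Thrsp.
Txnip: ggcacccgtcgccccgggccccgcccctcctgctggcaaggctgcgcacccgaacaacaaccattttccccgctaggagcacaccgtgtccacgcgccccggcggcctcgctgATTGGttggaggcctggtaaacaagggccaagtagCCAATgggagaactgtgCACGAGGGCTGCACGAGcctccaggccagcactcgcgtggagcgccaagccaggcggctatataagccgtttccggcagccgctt
Arrdc4: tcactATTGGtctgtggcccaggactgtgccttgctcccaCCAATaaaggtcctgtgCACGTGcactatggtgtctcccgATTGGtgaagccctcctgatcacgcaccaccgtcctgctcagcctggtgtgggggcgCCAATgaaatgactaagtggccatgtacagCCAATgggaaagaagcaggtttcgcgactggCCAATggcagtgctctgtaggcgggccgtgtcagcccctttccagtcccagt
Thrsp: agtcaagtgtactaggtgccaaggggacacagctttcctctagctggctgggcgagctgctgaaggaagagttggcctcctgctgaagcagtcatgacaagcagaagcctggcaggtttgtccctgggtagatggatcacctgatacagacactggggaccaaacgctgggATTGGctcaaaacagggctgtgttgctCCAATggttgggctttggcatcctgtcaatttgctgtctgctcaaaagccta
The response element in its searched form was found in the Txnip window alone among the 10 genes. It read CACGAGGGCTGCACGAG, with its first base at position −85 from the start site. The searched form stood in 15 of 32851 such windows of all genes (0.0457%). This form repeats the same motif in the same orientation, as in the Txnip match. Other forms of the element, such as those with motifs in opposite orientations, were not searched. Neither were bases farther than 250 from the start site. The match in Txnip alone therefore depends on the form chosen and does not set Txnip apart from the other members. A window without a match may therefore still belong to a gene with such an element. CACGTG was found in the windows of Arrdc4 (position −193) and Mlxipl (position −98 from a second start) and in 6.02% of all windows. The CCAAT box was found for 7 members, among them Txnip with 2 matches, Thrsp with 2 and Arrdc4 with 6, and in 33.8% of all windows. A sterol response element searched as TCACNCCAC was found for Mlxipl alone of the 10 (1.05% of all windows). The site TGACGTCA, bound by ATF and CREB factors, was found for 0 members and in 1.55% of all windows. These matches describe letters in 250 bases and do not show binding.

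All 10 genes stood at 1 FPKM or more in every library, so the filter on low values removed 0 of them. Their levels spanned a wide range: Fasn was the most abundant, from 99.3 to 423 FPKM with a median of 267 FPKM over the 12 libraries. Me1 (89.4 to 194 FPKM, median 118), Acly (46.8 to 214, median 99.7) and Txnip (39.5 to 115, median 90.4) were the next. Arrdc4 (1.06 to 5.59 FPKM, median 1.82) and Mlxipl (1.13 to 5.67 FPKM, median 4.50) were the lowest. For 6 of the 10, Txnip, Thrsp, Acly, Acaca, Fasn and Me1, the highest library was ATF7KO white replicate 2, and for Arrdc4 it was ATF7KO white replicate 1. Mlxipl peaked in WT beige, Acacb in C3H10t1/2 Control and Mid1ip1 in ATF7KO beige. The smallest span was that of Mid1ip1, whose highest library was 1.91-fold its lowest, and the largest that of Acacb, at 5.73-fold.

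**Figure D1:**
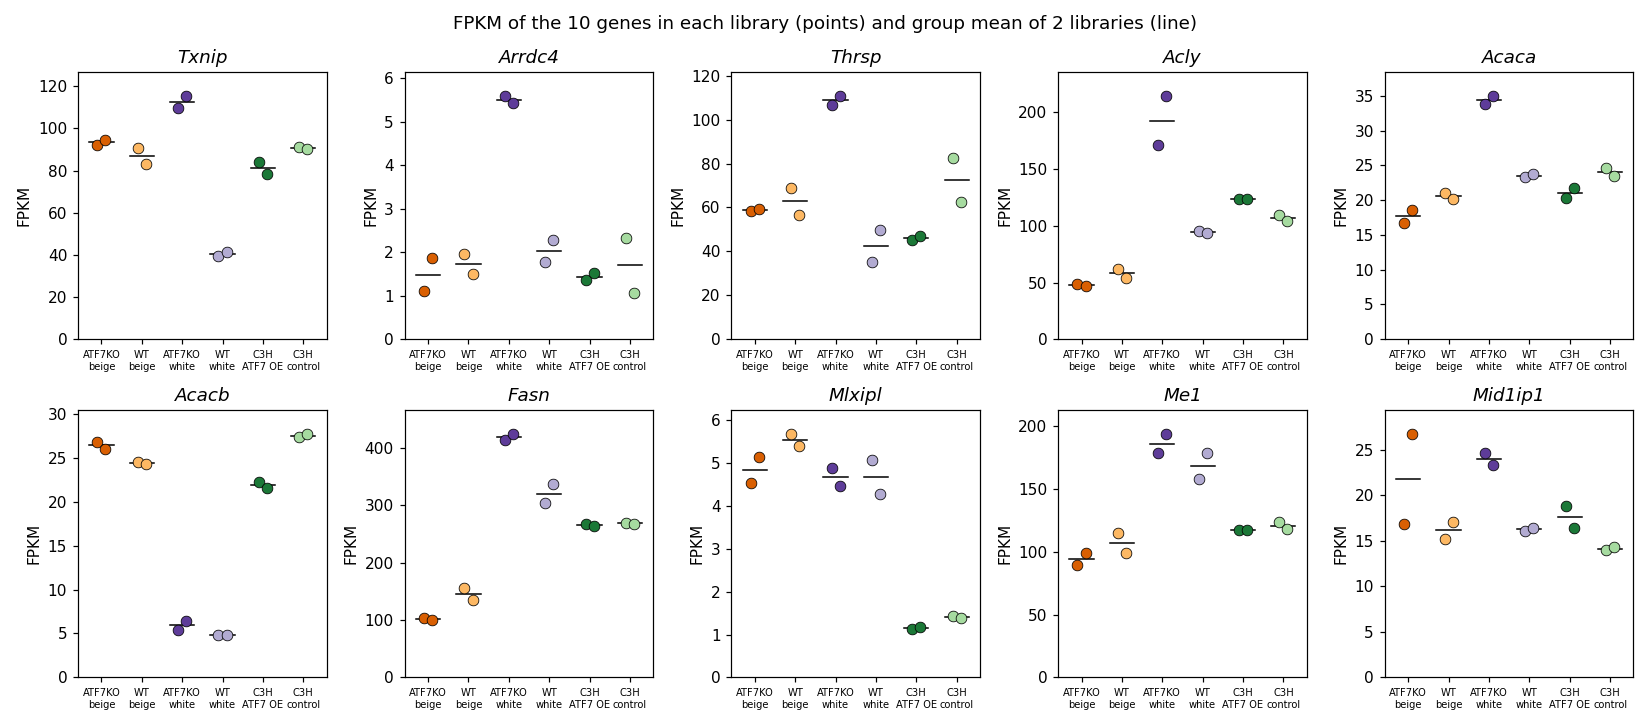
FPKM (linear axes starting at 0) of each of the 10 genes in the 12 libraries, with 2 points per group and a line at their mean; beige and white refer to the primary inguinal cultures, and C3H to C3H10t1/2 cells with ATF7 overexpressed (OE) or control. Both ATF7KO white libraries stand above both WT white libraries for Txnip, Arrdc4, Thrsp, Acly and Acaca, and Acacb separates both white groups (4.82 to 6.47 FPKM) from all others (21.6 to 27.6 FPKM).

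In order of group mean, Txnip stood highest in ATF7KO white, followed by ATF7KO beige, C3H10t1/2 Control, WT beige, ATF7-Overexpressing and, well apart at the bottom, WT white. WT beige overlapped with its neighbours on both sides in that order, so the middle of the ranking is not resolved by 2 libraries a group. Arrdc4 stood apart in ATF7KO white, at 5.59 and 5.42 FPKM, and each of the other 5 groups, all between 1.06 and 2.33 FPKM, overlapped with its neighbour in the order. Thrsp was also highest in ATF7KO white and lowest in WT white, where it overlapped with ATF7-Overexpressing cells. Fasn and Me1 were higher in both white groups than in both beige groups of the primary cultures, and Acacb ran the other way. For Fasn neighbouring groups did not overlap anywhere in the order. C3H10t1/2 Control and ATF7-Overexpressing nearly met, however, at 267.7 and 267.4 FPKM in their closest libraries.

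The comparison of ATF7KO white with WT white adipocytes sets the knockout and wild-type labels against each other without rosiglitazone. Of the 10 genes, 5 rose (Txnip, Thrsp, Arrdc4, Acly and Acaca) and 0 fell, by limma with Benjamini-Hochberg adjusted p under 0.05 over 11294 genes, of which 1.89% were called, 1.27% as higher and 0.62% as lower. The 10 had a median log2 fold change of 0.53, against 0.0289 for all genes tested, and fold changes throughout refer to log2(FPKM + 1), so the change of low genes such as Arrdc4 is understated. In bulk RNA, more cells of a type cannot be told apart from more RNA per cell.

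Among the alpha-arrestins, Txnip, which binds thioredoxin and promotes internalisation of glucose transporters, stood at 109 and 115 FPKM in ATF7KO white, against 39.5 and 41.2 FPKM in WT white. The groups lay far apart, at 112 ± 4.14 and 40.4 ± 1.18 FPKM (mean ± SD, n = 2 each), and the log2 fold change was 1.45 (SE 0.10, limma adjusted p = 0.000341). Arrdc4, a weakly expressed relative of Txnip, stood at 5.59 and 5.42 FPKM in ATF7KO white, against 1.77 and 2.29 FPKM in WT white (1.11, SE 0.16, limma adjusted p = 0.0190). Both ATF7KO white values exceeded every other library of the series. Arrdc3, an alpha-arrestin better known for control of adrenergic receptors, averaged 6.27 ± 1.18 FPKM in ATF7KO white and 6.10 ± 0.345 FPKM in WT white (n = 2 each). Txn1, the thioredoxin that Txnip binds, averaged 54.2 ± 4.43 FPKM in ATF7KO white and 68.4 ± 11.7 FPKM in WT white (limma adjusted p = 0.209). The ratio of Txnip to Txn1 within a library was 1.91 and 2.26 in ATF7KO white, against 0.657 and 0.537 in WT white.

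Of the lipogenic genes, Thrsp, a nuclear and cytosolic protein induced by carbohydrate feeding and thyroid hormone, stood at 107 and 111 FPKM in ATF7KO white, against 35.4 and 49.7 FPKM in WT white. The WT white libraries differed from each other by more than the ATF7KO white ones, but the groups did not overlap (1.35, SE 0.16, limma adjusted p = 0.00763). Acly, the citrate lyase, stood at 171 and 214 FPKM in ATF7KO white, against 95.4 and 93.5 FPKM in WT white (1.01, SE 0.13, limma adjusted p = 0.0104). Here the wider spread lay in ATF7KO white, whose lower library was still well above WT white. Acaca, the carboxylase that supplies malonyl-CoA for synthesis, stood at 33.8 and 35 FPKM in ATF7KO white, against 23.4 and 23.7 FPKM in WT white (0.53, SE 0.09, limma adjusted p = 0.0339). This was a smaller difference with tight replicates.

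The remaining 5 genes did not pass the test. Fasn stood at 413 and 423 FPKM in ATF7KO white, against 304 and 336 FPKM in WT white (0.39, SE 0.11, limma adjusted p = 0.120). Mid1ip1 stood at 24.7 and 23.3 FPKM in ATF7KO white, against 16.1 and 16.4 FPKM in WT white, with the same fold change as Acaca but a larger error (0.53, SE 0.18, limma adjusted p = 0.156). Acacb, the mitochondrial carboxylase, averaged 5.94 ± 0.756 FPKM in ATF7KO white and 4.83 ± 0.011 FPKM in WT white (n = 2 each), and Me1, the cytosolic malic enzyme, averaged 186 ± 10.3 FPKM in ATF7KO white and 168 ± 14.8 FPKM in WT white (n = 2 each). In these 4 genes the ATF7KO white libraries also lay above the WT white ones. Mlxipl, which encodes ChREBP itself, was the exception, at 4.89 and 4.46 FPKM in ATF7KO white, against 5.06 and 4.28 FPKM in WT white (0.00, SE 0.11), and the sign of its fold change depended on the scaling (−0.05 quantile-normalized, −0.03 median-centred). The gene-level FPKM does not separate transcripts from the different start sites of Mlxipl, so a shift between these was not measured. In all, 9 of the 10 had both ATF7KO white libraries above both WT white ones, and 32.1% of all genes tested did.

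How many members were called depended on single libraries. Txnip kept its call with each of the 4 white libraries left out in turn (limma adjusted p from 0.00188 to 0.00798) and under all 8 other settings. Without ATF7KO white replicate 2 it was the only 1 of the 10 still called, without ATF7KO white replicate 1 the 2 called were Txnip and Acly, without WT white replicate 2 they were Txnip and Thrsp, and without WT white replicate 1 there were 4. Acaca was called in 0 of these 4 fits, although its fold change stayed between 0.50 and 0.55. With a pseudocount of 0.1 Arrdc4 and Acaca missed the threshold (limma adjusted p = 0.0595 for both), with no filter Arrdc4 did (limma adjusted p = 0.0573), and with all 12 libraries in 1 fit Fasn passed it (limma adjusted p = 0.0410). Over all genes, 213 were called, and between 23 and 277 with 1 library left out, so the loss of calls was not limited to these 10 genes. Of the 213, 67.1% were higher in ATF7KO white. That share was 50% when small RNA genes were dropped, 52.8% with median-centred and 53.4% with quantile-normalized values.

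**Figure D2:**
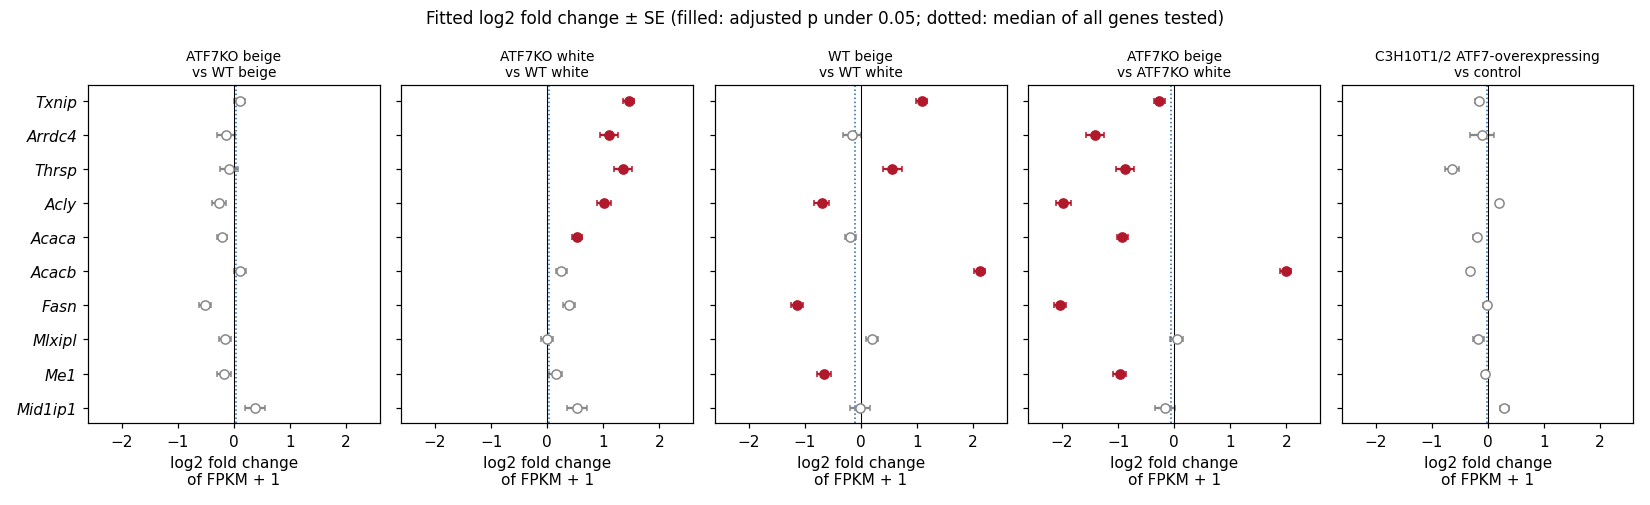
Log2 fold change on the log2(FPKM + 1) scale with its standard error for each of the 10 genes in 5 comparisons, first-named group over second-named; filled points had an adjusted p under 0.05 and the dotted line is the median of all genes tested. In ATF7KO white over WT white 5 genes are filled and above 0, in ATF7KO beige over WT beige and in the C3H10t1/2 comparison 0 are, and in both beige over white comparisons Acacb lies on the opposite side from Fasn, Acly and Me1.

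Other cell types and the state of the adipocytes differed between the same libraries. Of 12 macrophage markers 6 were higher in ATF7KO white and 0 lower, and they summed to 668 and 719 FPKM, against 510 and 474 FPKM in WT white. Of 11 adipocyte markers 2 were lower (Cd36 and Cidec) and 0 higher, and the 11 summed to 3784 and 3891 FPKM in ATF7KO white, against 5001 and 5823 FPKM in WT white. The 5 members that rose were higher in the same libraries in which adipocyte markers summed lower and macrophage markers summed higher. Of 9 tested markers of preadipocytes and stroma, 1 was higher and 0 lower. The part of these shifts in the members' values was not tested.

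In 5 further lists of the same pathway 1 gene, Tkt, was called in this comparison. Of 16 regulators of glucose sensing and lipogenesis, 0 were called. Mlx, the partner of ChREBP, averaged 9.40 ± 0.678 FPKM in ATF7KO white and 10.4 ± 0.245 FPKM in WT white, and Mlxip, the related glucose sensor MondoA, averaged 5.97 ± 0.434 and 4.81 ± 0.209 FPKM in the same order (n = 2 each, limma adjusted p = 0.577 and 0.171). Srebf1 averaged 66.7 ± 3.63 FPKM in ATF7KO white and 54.4 ± 3.91 FPKM in WT white (0.29, limma adjusted p = 0.246), and Nr1h3, the oxysterol receptor LXRα that induces Srebf1, averaged 9.37 ± 0.084 and 13 ± 2.01 FPKM in the same order (−0.43, limma adjusted p = 0.128). Of 15 tested genes among other described ChREBP targets 0 were called, and their median was −0.01, with 7 of the 15 at an unadjusted p under 0.05, as were 2246 of the 11294 genes tested. Elovl6, the elongase of palmitate, stood at 15.2 and 15.1 FPKM in ATF7KO white, against 8.18 and 9.52 FPKM in WT white (0.72, limma adjusted p = 0.10), while Scd1, the stearoyl-CoA desaturase, stood at 2195 and 2361 FPKM in ATF7KO white, against 3304 and 2862 FPKM in WT white (−0.43, limma adjusted p = 0.188). These targets thus lay on both sides of 0.

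Of 15 tested genes that supply citrate and NADPH, 1 was higher, Tkt, a transketolase of the pentose phosphate pathway, at 86.0 and 100.3 FPKM in ATF7KO white, against 61.2 and 64.3 FPKM in WT white (0.56, SE 0.11, limma adjusted p = 0.0418). Tkt lost its call with a pseudocount of 0.1, with no filter and with each of the 4 white libraries left out in turn. Slc25a1, the carrier that exports citrate from mitochondria, averaged 91.6 ± 6.92 FPKM in ATF7KO white and 85.0 ± 3.17 FPKM in WT white (n = 2 each). Of 9 tested genes of the thioredoxin system and the other alpha-arrestins 0 were called, with the glucose transporter Slc2a1 at 0.83 (limma adjusted p = 0.259), and likewise 0 of 12 partners and regulators of the carboxylases. Mlycd, which breaks down malonyl-CoA, averaged 4.82 ± 0.420 FPKM in ATF7KO white and 5.55 ± 0.233 FPKM in WT white (n = 2 each). Pklr and Arrdc5 were listed at or near 0 in every library.

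**Figure D3:**
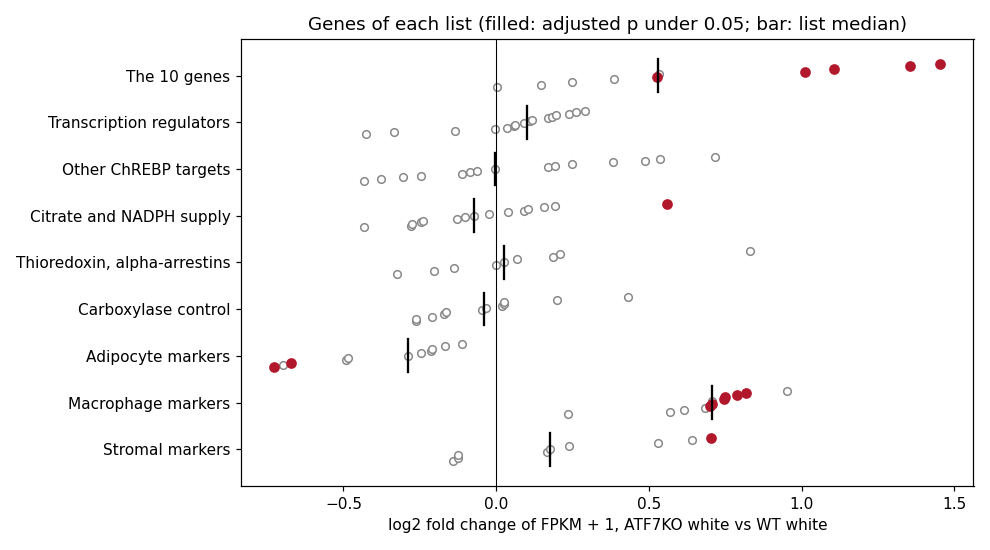
Log2 fold change on the log2(FPKM + 1) scale in ATF7KO white over WT white for the tested genes of 9 lists, with 1 point per gene; filled points had an adjusted p under 0.05 and bars are list medians. The 10 genes have a median of 0.53 with 5 filled points, the other pathway lists have medians between −0.07 and 0.10 with Tkt as the single filled point, and macrophage and adipocyte markers lie on opposite sides of 0.

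The same comparison with rosiglitazone, ATF7KO beige against WT beige, gave 0 calls among the 10 genes, where 0.151% of 11294 genes were called by limma and 1160 genes had an unadjusted p under 0.05. At that unadjusted limit 2 members passed, Fasn and Acaca, both lower. Fasn stood at 103 and 99.3 FPKM in ATF7KO beige, against 155 and 135 FPKM in WT beige. The groups did not overlap, but the difference did not pass the correction (−0.51, SE 0.11, limma adjusted p = 0.220). Txnip stood at 92.3 and 94.5 FPKM in ATF7KO beige, against 90.7 and 83.2 FPKM in WT beige (0.10, SE 0.10). Thrsp stood at 58.4 and 59.4 FPKM in ATF7KO beige, against 69.0 and 56.8 FPKM in WT beige, so these groups overlapped (−0.09, SE 0.16). Acly stood at 49.1 and 46.8 FPKM in ATF7KO beige, against 61.9 and 54.2 FPKM in WT beige (−0.27, SE 0.13, limma adjusted p = 0.511), and Acaca at 16.7 and 18.6 FPKM in ATF7KO beige, against 21.1 and 20.1 FPKM in WT beige (−0.21, SE 0.09, limma adjusted p = 0.485).

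Arrdc4 stood at 1.11 and 1.86 FPKM in ATF7KO beige, against 1.95 and 1.51 FPKM in WT beige, and Mid1ip1 at 16.9 and 26.7 FPKM in ATF7KO beige, against 15.2 and 17.1 FPKM in WT beige. For both genes the ATF7KO beige replicates differed from each other by more than the group means did. Acacb averaged 26.4 ± 0.561 FPKM in ATF7KO beige and 24.4 ± 0.219 FPKM in WT beige, Me1 94.4 ± 7.0 and 107 ± 11.6 FPKM, and Mlxipl 4.84 ± 0.422 and 5.53 ± 0.199 FPKM, in the same order (n = 2 each). The median of the 10 was −0.15, against 0.0414 for all genes, and 3 of the 10 lay above 0. In the pathway lists 0 genes were called. The lowest p in them was that of Slc25a10, the mitochondrial dicarboxylate carrier (−0.57, limma adjusted p = 0.119), and Slc25a1 averaged 72.7 ± 3.77 FPKM in ATF7KO beige and 98.1 ± 6.30 FPKM in WT beige (n = 2 each, −0.43, limma adjusted p = 0.255). Macrophage markers summed to 26.4 and 21.1 FPKM in ATF7KO beige, against 25.4 and 23.4 FPKM in WT beige.

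Whether the genotype difference itself differed between beige and white cultures was tested as an interaction, the ATF7KO over WT log2 fold change in beige minus that in white. It was called for 2 of the 10 genes, Txnip (−1.35, SE 0.14, limma adjusted p = 0.00391) and Acly (−1.28, SE 0.18, limma adjusted p = 0.0333), both lower, against 0.292% of all genes tested (0.186% lower). For Thrsp the estimate was as large (−1.44, SE 0.23) but missed the threshold (limma adjusted p = 0.0518), as did Arrdc4 (−1.25, limma adjusted p = 0.0972), Fasn (−0.90, limma adjusted p = 0.0920) and Acaca (−0.74, limma adjusted p = 0.0915). All 10 estimates lay below 0, with a median of −0.82, against 0.00973 for all genes. In the same contrast 0 of 12 macrophage markers lay above 0 (median −0.695) and 11 of 11 adipocyte markers did (median 0.283), with 0 called in either list, and their part in the result was not tested. The estimate of Mid1ip1 was 0.16 without ATF7KO beige replicate 1. The call of Acly held with 1 of 8 libraries left out, ATF7KO white replicate 1, and that of Txnip with 7 of 8, the exception being WT beige replicate 1 (limma adjusted p = 0.0583). Without WT white replicate 2 Thrsp was called (−1.68, limma adjusted p = 0.0104). Thrsp and Acaca were also called after quantile normalization or median centring, and these with Fasn when small RNA genes were left out or all 12 libraries were fitted together.

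The effect of rosiglitazone within a genotype was compared next. These cultures differed broadly, with 53.7% of all genes called between WT beige and WT white (21.6% higher, 32.1% lower) and 61.0% between ATF7KO beige and ATF7KO white (26.6% higher, 34.3% lower), so a call among the 10 is not unusual there. Markers of other cells differed as well: macrophage markers summed to between 21.1 and 26.4 FPKM in the 4 beige libraries and between 474 and 719 FPKM in the 4 white ones, and all 9 tested markers of preadipocytes and stroma were lower in beige in both genotypes. Their part in the values below was not tested. The comparisons of WT white with ATF7KO white and with WT beige share the WT white libraries. The low WT white values of Txnip and Thrsp therefore enter both.

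Between WT beige and WT white, 3 of the 10 genes rose with rosiglitazone (Acacb, Txnip and Thrsp) and 3 fell (Fasn, Acly and Me1). Acacb stood at 24.5 and 24.2 FPKM in WT beige, against 4.84 and 4.82 FPKM in WT white (2.12, SE 0.10, limma adjusted p = 9.88e-07). Txnip stood at 90.7 and 83.2 FPKM in WT beige, against 39.5 and 41.2 FPKM in WT white (1.09, SE 0.10, limma adjusted p = 2.46e-05). Fasn stood at 155 and 135 FPKM in WT beige, against 304 and 336 FPKM in WT white (−1.14, SE 0.11, limma adjusted p = 5.04e-05). Over the 10 genes, both WT beige libraries lay above both WT white ones for 4 and below them for 4, as they did for 31.3% and 46.2% of all genes tested. Acly fell by 0.70 and Me1 by 0.65 on the log2 scale. Thrsp, at 69.0 and 56.8 FPKM in WT beige, against 35.4 and 49.7 FPKM in WT white, was called (0.57, limma adjusted p = 0.0160), but not after quantile normalization (limma adjusted p = 0.0738), without WT beige replicate 1 (limma adjusted p = 0.122) or without WT white replicate 1 (limma adjusted p = 0.0828). Arrdc4, Acaca, Mlxipl and Mid1ip1 were not called, although other scalings gave calls for 2 of them. Acaca was lower after quantile normalization (−0.22, limma adjusted p = 0.0371) and without small RNA genes (−0.35, limma adjusted p = 0.00448), and Mlxipl was higher after quantile normalization (0.33) and median centring (0.31, limma adjusted p = 0.0312 for both). The median of all genes was −0.0979 and moved to between −0.28 and 0.01 under the other scalings, and the 5 calls other than Thrsp held under each.

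Between ATF7KO beige and ATF7KO white, 1 gene rose with rosiglitazone and 7 fell. Acacb stood at 26.8 and 26.0 FPKM in ATF7KO beige, against 5.40 and 6.47 FPKM in ATF7KO white (1.99, SE 0.10, limma adjusted p = 8.39e-07). Fasn stood at 103 and 99.3 FPKM in ATF7KO beige, against 413 and 423 FPKM in ATF7KO white (−2.04, SE 0.11, limma adjusted p = 1.39e-06), and Acly at 49.1 and 46.8 FPKM in ATF7KO beige, against 171 and 214 FPKM in ATF7KO white (−1.98, SE 0.13, limma adjusted p = 2.94e-06). Both enzymes were therefore lower in ATF7KO beige than in any other group and higher in ATF7KO white than in any other group. Arrdc4 fell by 1.40, Me1 by 0.97, Acaca by 0.92 and Thrsp by 0.87 on the log2 scale. Txnip differed least among the called genes (−0.26, limma adjusted p = 0.0405), and its call was lost after median centring (−0.15, limma adjusted p = 0.135) and with each of the 4 libraries left out (limma adjusted p from 0.0611 to 0.199). Mlxipl and Mid1ip1 were not called, but Mid1ip1 was lower without ATF7KO beige replicate 2 (−0.48, limma adjusted p = 0.00765). The median of all genes was −0.0622, between −0.30 and 0.05 under the other scalings.

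The carboxylases thus parted between beige and white cultures. The ratio of Acacb to Acaca FPKM within a library was 1.60 and 1.39 in ATF7KO beige and 1.16 and 1.20 in WT beige, against 0.160 and 0.185 in ATF7KO white and 0.207 and 0.203 in WT white. In C3H10t1/2 it was 1.1 and 0.995 in ATF7-Overexpressing and 1.11 and 1.18 in Control cells, above every primary white library. Acacb makes the malonyl-CoA that restrains fatty acid entry into mitochondria, whereas Acaca supplies synthesis. Mlycd, which removes malonyl-CoA, was higher in beige as well (1.26 in WT, limma adjusted p = 2.52e-05; 1.71 in ATF7KO, limma adjusted p = 3.07e-06), and so was Prkaa2, a catalytic subunit of the kinase AMPK that inhibits both carboxylases (0.75 in WT, 1.13 in ATF7KO). Mid1, the microtubule-associated ubiquitin ligase after which Mid1ip1 is named, was lower (−1.19 in WT, −1.38 in ATF7KO).

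**Figure D4:**
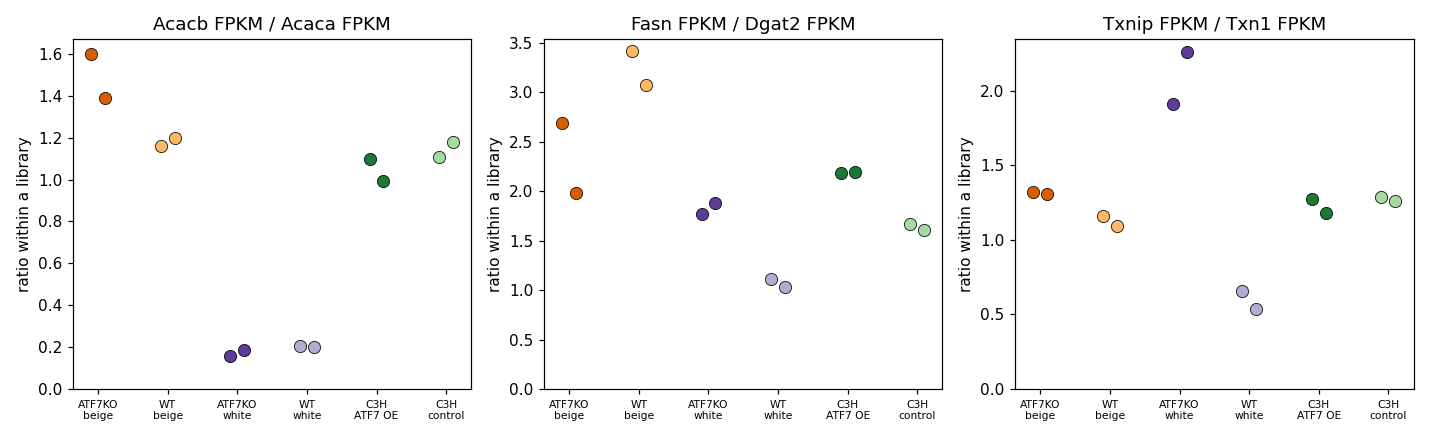
Ratios of FPKM within each of the 12 libraries, 2 points per group, on linear axes from 0. Acacb over Acaca lies between 0.160 and 0.207 in the white groups and between 0.995 and 1.60 in all others. Fasn over Dgat2 is 1.77 and 1.88 in ATF7KO white against 1.11 and 1.03 in WT white, the lowest group. It is higher than in ATF7KO white in WT beige (3.42 and 3.07) and ATF7KO beige (2.69 and 1.98). In C3H10t1/2 it is 2.18 and 2.19 in ATF7-Overexpressing and 1.67 and 1.61 in Control cells. Txnip over Txn1 is 1.91 and 2.26 in ATF7KO white against 0.657 and 0.537 in WT white.

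Regulators and neighbouring genes of the pathway were divided between beige and white. In WT beige against WT white, 21.6% of all genes tested were higher and 32.1% lower. In ATF7KO beige against ATF7KO white, 26.6% were higher and 34.3% lower. Of the 16 regulators, 6 were higher and 5 lower in WT beige than in WT white, and likewise 6 and 5 in ATF7KO beige against ATF7KO white. The 11 calls became 7 without WT beige replicate 1, WT white replicate 1 or WT white replicate 2, and in ATF7KO 7 without ATF7KO white replicate 2, and Srebf1, Nr1h3 and Thra were among the 7 each time. Srebf1 was higher (0.75, limma adjusted p = 0.00106, in WT; 0.70, limma adjusted p = 0.00125, in ATF7KO) and so was Nr1h3 (0.58 in WT, 1.02 in ATF7KO), while the thyroid hormone receptor Thra, whose ligand induces Thrsp in liver, was lower (−1.13 in WT, −1.69 in ATF7KO). Fasn and Acly, known targets of SREBP-1c, were lower in the same beige cultures. Whether their levels are linked to that of Srebf1 was not tested. Of the other ChREBP targets, 8 of 15 were higher and 5 lower in ATF7KO beige than in ATF7KO white, and 9 were higher and 2 lower in WT beige than in WT white. Among them were the insulin-regulated glucose transporter Slc2a4 at 48.5 and 45.4 FPKM in WT beige, against 15.4 and 13.4 FPKM in WT white (1.64, limma adjusted p = 3.56e-06), and Dgat2, of triglyceride synthesis, at 45.3 and 43.9 FPKM in WT beige, against 273 and 326 FPKM in WT white (−2.71, limma adjusted p = 1.86e-06). Slc2a1, a basal glucose transporter that Txnip acts on, stood at 125 and 89.2 FPKM in WT beige, against 8.12 and 6.81 FPKM in WT white (3.66, limma adjusted p = 5.49e-05). In ATF7KO beige it was at 106 and 43.8 FPKM, with replicates far apart, against 11.1 and 17.7 FPKM in ATF7KO white (2.20, limma adjusted p = 0.000862). Citrate synthase Cs, which makes citrate in mitochondria, was higher in WT beige than in WT white by 1.36 on the log2 scale. Txnrd2, the mitochondrial thioredoxin reductase, stood at 6.44 to 8.42 FPKM in the 4 primary beige libraries and was listed at 0 in the other 8, and a listed 0 may be a failed estimate.

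In C3H10t1/2, ATF7-Overexpressing against Control cells asks what more ATF7 does in beige adipocytes. Of the 10 genes 0 were called, where 1.49% of 9981 genes were called by limma and 1715 had an unadjusted p under 0.05. At that unadjusted limit 5 members passed: Thrsp, Acacb and Acaca lay lower, and Acly and Mid1ip1 higher. Thrsp stood at 45.2 and 46.8 FPKM in ATF7-Overexpressing, against 82.6 and 62.5 FPKM in Control cells (−0.63, SE 0.13, limma adjusted p = 0.0829). The Control libraries differed widely here, and without Control replicate 2, the lower of the pair, Thrsp was called (−0.83, limma adjusted p = 0.00739). Acacb stood at 22.3 and 21.6 FPKM in ATF7-Overexpressing, against 27.3 and 27.6 FPKM in Control cells (−0.31, SE 0.06, limma adjusted p = 0.0797). Txnip stood at 84.0 and 78.4 FPKM in ATF7-Overexpressing, against 91.1 and 90.0 FPKM in Control cells (−0.16, SE 0.07, limma adjusted p = 0.302). Over the 10 genes, both ATF7-Overexpressing libraries lay below both Control ones for 7 and above them for 2, as they did for 28.8% and 20.3% of all genes tested.

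Acly averaged 123 ± 0.172 FPKM in ATF7-Overexpressing and 107 ± 3.73 FPKM in Control cells, and Mid1ip1 averaged 17.6 ± 1.71 and 14.1 ± 0.228 FPKM in the same order (n = 2 each, limma adjusted p = 0.174 and 0.153). Acaca averaged 21 ± 0.967 FPKM in ATF7-Overexpressing and 24.1 ± 0.857 FPKM in Control cells (n = 2 each, limma adjusted p = 0.245). Fasn stood at 267 and 263 FPKM in ATF7-Overexpressing, against 269 and 268 FPKM in Control cells, the smallest difference of the 10 (−0.02, SE 0.06), and its sign turned under 3 scalings. Mlxipl was lower in both C3H10t1/2 groups than in every primary group, at 1.13 and 1.17 FPKM in ATF7-Overexpressing, against 1.43 and 1.38 FPKM in Control cells. Arrdc4 and Me1 differed by less than their standard errors. The median of the 10 was −0.13, against −0.0201 for all genes. In the pathway lists, Scd1 (905 and 978 FPKM in ATF7-Overexpressing, against 1396 and 1393 FPKM in Control cells) and Dgat2 (122.5 and 120.3 FPKM against 162 and 166 FPKM, in the same order) were lower (−0.57 and −0.43, limma adjusted p = 0.0329 and 0.0341), and Prkab2, a regulatory subunit of AMPK, was higher (0.46, limma adjusted p = 0.0449). All 3 calls were lost with no filter, with all 12 libraries in 1 fit and with each of the 4 libraries left out in turn, that of Prkab2 also with no trend, as was that of Dgat2, and that of Scd1 after quantile normalization. Macrophage markers were near 0 in both groups, summing to between 1.74 and 2.22 FPKM, with Itgam, C1qa and C1qb listed at 0.

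Likeness of pattern over the 12 libraries was measured as the root mean square difference of log2(FPKM + 1), each gene centred on its own mean. It was ranked among 7382 entries with a mean log2(FPKM + 1) of at least 2, without predicted genes, pseudogenes and small RNA genes. Arrdc4 fell below that limit and was not ranked. The ranks are given as a description with no test. Closest to Txnip were Psmg4 (0.275), Zfp395 (0.310) and Slc12a7 (0.319), which encode a proteasome assembly chaperone, a zinc finger protein and a potassium-chloride cotransporter. Thrsp ranked 8 (0.332) in likeness to Txnip, and Txnip ranked 3 in likeness to Thrsp, after Zfp395 (0.303) and Ankrd44 (0.325), an ankyrin repeat protein. Acaca ranked 6 in likeness to Thrsp (0.346). Closest to Fasn were Pqlc3 (0.113), Nynrin (0.141) and Smarca2 (0.160), the last a chromatin remodelling ATPase, and Acly ranked 41 (0.244). Txnip ranked 5220 in likeness to Fasn (0.897), and Acacb ranked 7050 (1.53).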

How the data were processed

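The 12 libraries were made, per the labels' protocols, from total RNA depleted of ribosomal RNA with a directional kit and read as pairs of 36 bases. The authors deposited 1 FPKM value per gene and library, per the file headers. The build was mm10 (GRCm38) per the submitters' processing notes, while no source used here names the aligner, the quantifier or the strand setting. Starts in the deposited values count from 0, so 1 was added. Groups came from the labels. Depth is unknown: steps in low values gave relative depths of 0.732 to 1.08 against WT beige replicate 1, and no interval could be computed.

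FPKM were tested as log2(FPKM + 1) with limma 3.58.1 (eBayes with trend, two-sided) in R 4.3.3, keeping entries that reached 1 FPKM in 2 or more of the fitted libraries. The 8 primary libraries were fitted together (11294 entries, 4 residual degrees of freedom) and the 4 C3H10t1/2 libraries apart (9981 entries, 2 residual degrees of freedom). Adjusted p is Benjamini-Hochberg over all entries of a comparison, with calls under 0.05. No exact test of 2 against 2 can go below 0.333. The script was tested on simulated data. All 10 members are named. From each of 5 pathway lists the text draws on the 4 tested genes with the lowest p in a comparison and on Mlx, Mlxip, Srebf1, Nr1h3, Slc25a1, Txn1, Arrdc3 and Mlycd. Pklr, Arrdc5 and single marker genes were named after their values were seen. Members and lists were chosen with earlier results of these data known. Alternatives were quantile normalization, median centring, a pseudocount of 0.1, no filter, small RNA genes left out, all 12 libraries in 1 fit, no trend, a replicate block and each library left out.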

Additional observations from a re-analysis of the deposited data

Results flagged for a closer look

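The genotype difference of 2 genes differed between beige and white cultures by a test of that difference. For Txnip the ATF7KO over WT log2 fold change in beige minus that in white was −1.35 (limma adjusted p = 0.00391), from 0.10 in beige and 1.45 in white. For Acly it was −1.28 (limma adjusted p = 0.0333), from −0.27 in beige and 1.01 in white. The call of Acly was lost with no filter (limma adjusted p = 0.0951) and depended on single libraries, as given above. With a library left out its estimate ranged from −1.44 to −1.12. Groups of 2 libraries were too small to look for a library that stood apart.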

How the results depend on the processing

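With 2 libraries a group, which of the 10 genes were called depended on the processing more than their direction did. In ATF7KO white against WT white the 5 calls became 3 with a pseudocount of 0.1 and 1 to 4 with a library left out. The 2 calls of the interaction became 4 after quantile normalization or median centring, 1 with no filter, 5 without small RNA genes, 5 with all 12 libraries in 1 fit and 0 to 2 with a library left out. In C3H10t1/2 the count was 0 to 1 with a library left out. Counts over all genes moved more: the 213 of ATF7KO white against WT white became 358 (quantile), 54 (pseudocount 0.1), 122 (no filter), 114 (without small RNA genes), 642 (all 12 libraries) and 23 to 277 (a library left out). The 17 of ATF7KO beige against WT beige became 26 (all 12 libraries), 27 (replicate block) and 5 to 20, the 33 of the interaction 20 (pseudocount 0.1), 116 (all 12 libraries) and 16 to 43, and the 149 of C3H10t1/2 became 22 (no filter), 91 (no trend), 88 (replicate block) and 17 to 138. Signs turned for values that the report does not call, given here with the setting or as ranges with a library left out. In ATF7KO beige against WT beige these were Arrdc4 (−0.366 to 0.0727) and Thrsp (−0.225 to 0.0525). In ATF7KO white against WT white it was Mlxipl (−0.0483 quantile, −0.0286 median centring, −0.0965 to 0.101). In WT beige against WT white they were Arrdc4 (0.11 quantile) and Mid1ip1 (0.099 median centring, −0.0884 to 0.0688). In ATF7KO beige against ATF7KO white they were Mlxipl (−0.177 without small RNA genes, −0.0324 to 0.115) and Mid1ip1 (−0.483 to 0.149). In the interaction it was Mid1ip1 (−0.474 to 0.159). In C3H10t1/2 they were Arrdc4 (−0.45 to 0.243), Fasn (0.0725 quantile, 0.000662 median centring, 0.0218 without small RNA genes) and Me1 (0.0403 quantile). The cause was not tested. Calls that were higher made up 40.2% in WT beige against WT white (27.9% to 51.4% under the other scalings), 43.7% in ATF7KO beige against ATF7KO white (29.6% to 52.8%) and 28.9% in C3H10t1/2 (30.3% to 44.2%). Replicate numbers were not stated to pair samples, and deviations of same-numbered libraries correlated at r from −0.0962 to 0.151. With them as a replicate block the members called were 5 and 2 in ATF7KO white against WT white and the interaction, and 7 in ATF7KO beige against ATF7KO white, where Txnip was lost (adjusted p = 0.0507), and Scd1, Dgat2 and Prkab2 were lost in C3H10t1/2.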
